A study of Mus musculus with 6 samples.

Results

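The mRNA levels of 10 genes of the MHC class I molecule were compared between ICB-resistant clones of the mouse colon carcinoma line CT26 and the parental line. The genes are 9 heavy chains (H2-K1, H2-D1, H2-T22, H2-T23, H2-T24, H2-M3, H2-Q4, H2-Q6 and H2-Q7) and the light chain B2m. They were chosen by symbol, and all 10 were found among the 53801 genes in the tables. RNA-seq had been performed on 6 libraries, replicates A and B of each of 3 lines: the parental line, clone B04 and clone B64. Per the study's methods, the parental line was a bulk population taken back into culture after growth in mice. B04 and B64 each came from a single cell of an engrafted tumour, so each resistant line is 1 clone. Their barcodes were among those enriched in mice under immune checkpoint blockade (ICB). The methods name no ICB for the tumours that gave the clones, whereas the study's discussion places the isolation after ICB. All lines are CT26 of the BALB/c strain, and cells of every line were grown in RPMI medium with no treatment. The sample titles call them tumours, whereas the methods describe RNA from cultured cells.

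MHC class I molecules sit on the surface of nearly all nucleated cells and show short peptides from inside the cell to CD8+ T cells. Each has a polymorphic heavy chain, which holds the peptide, and the invariant light chain, beta-2 microglobulin, without which most heavy chains do not reach the surface. The classical heavy chains H2-K and H2-D present peptides to T cells broadly, whereas the non-classical (class Ib) chains of the Q, T and M regions have narrower roles, several of them as ligands of NK cell receptors or of unusual T cells. In tumours, loss of these genes is a known route of escape from T cells, and interferons raise them through IRF1 and the transactivator NLRC5.

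The promoters of class I genes are known for a shared upstream block. It holds a kappa B element, an interferon-stimulated response element (ISRE), and an X and a Y box at which RFX, CREB/ATF and NF-Y proteins gather NLRC5. RefSeq promoter windows (GRCm38.p6, from 250 bases before to 50 after the start site) were matched for 9 of the 10 genes. H2-T24 had no entry. The stretches below are shown because they hold the kappa B and ISRE-type letters, and the capitals mark those letters. They were 5 class I windows with both in the same order, B2m with both in the other order, and H2-T22 and H2-T23 with an ISRE-type match alone:
H2-K1: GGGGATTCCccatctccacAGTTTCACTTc
H2-D1: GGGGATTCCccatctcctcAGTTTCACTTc
H2-Q4: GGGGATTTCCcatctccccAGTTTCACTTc
H2-Q6: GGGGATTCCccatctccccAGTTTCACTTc
H2-Q7: GGGGATTCCcatctccccAGTTTCACTTct
H2-T22: taattggcttAGTTTCACTTTCgaatcccc
H2-T23: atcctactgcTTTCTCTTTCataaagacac
B2m: catGAAACTGAAAatgGGAAAGTCCCtttg

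These stretches lie at chr17:34000429-34000458 (minus strand) for H2-K1, chr17:35262923-35262952 (plus) for H2-D1, chr17:35379443-35379472 (plus) for H2-Q4, chr17:35424677-35424706 (plus) for H2-Q6, chr17:35439022-35439051 (plus) for H2-Q7, chr17:36042916-36042945 (minus) for H2-T22, chr17:36032806-36032835 (minus) for H2-T23 and chr2:122147545-122147574 (plus) for B2m. Both strands were searched. The kappa B letters were GGGNNTTCC (5.8% of 32851 mouse promoter windows) or the same with NNN in place of NN (5.6%), and either was found in 6 of the 9 windows against 9.7% of all windows. The ISRE-type letters were TTTC and TTTC with NN between (an ISRE, 3.4% of all windows) or AGTTTC, NN and TT (an ISRE variant, 1.7%), and either was found in 8 of the 9 windows against 4.8% of all windows. The forms of a pair can overlap, as they do in H2-Q4 for kappa B and in H2-T22 for the ISRE. The Y box letters CCAAT were found in 9 of 9 windows and in 37.4% of all windows, and the X2 letters TGATGAC in 6 of 9 and in 3.2%. The letters were chosen after these windows were seen, so the shares describe the windows and are no test of enrichment. A match describes the sequence and does not show that a protein binds there.

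H2-M3 was the window with neither a kappa B nor an ISRE-type match by these letters. Its window does hold ggtttcactt, which departs from the ISRE variant only in its first letter. The lack of a match thus depends on letters that were chosen after the windows were seen. Whether it bears on the level of H2-M3 was not tested. Its upstream stretch (chr17:37270070-37270219, plus strand) is shown beside that of H2-K1 (chr17:34000348-34000497, minus strand), since in B64 against the parental line H2-K1 had the smallest adjusted p of the genes with a fold and H2-M3 the largest. Here the capitals mark all matches, the X2 and Y letters included, and ATTGG is CCAAT on the other strand:
H2-K1: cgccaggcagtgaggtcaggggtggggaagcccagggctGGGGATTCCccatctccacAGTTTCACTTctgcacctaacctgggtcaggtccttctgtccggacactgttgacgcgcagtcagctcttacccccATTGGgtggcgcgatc
H2-M3: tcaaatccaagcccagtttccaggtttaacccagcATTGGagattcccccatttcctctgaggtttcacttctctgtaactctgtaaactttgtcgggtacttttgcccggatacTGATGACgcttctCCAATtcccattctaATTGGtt

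The 9 heavy chain genes lie on chromosome 17 and B2m on chromosome 2. In GENCODE M21 (GRCm38), H2-K1 (ENSMUSG00000061232) spans chr17:33996017-34000347 on the minus strand and H2-D1 (ENSMUSG00000073411) spans chr17:35262730-35267499 on the plus strand. H2-Q4 (chr17:35379617-35385290), H2-Q6 (chr17:35424850-35430055), H2-Q7 (chr17:35439155-35443773) and H2-M3 (chr17:37270220-37274484) are on the plus strand. H2-T24 (chr17:36005695-36020560), H2-T23 (chr17:36029773-36032855) and H2-T22 (chr17:36037128-36042747) are on the minus strand. B2m (ENSMUSG00000060802) spans chr2:122147686-122153083 on the plus strand.

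Depth was even, with 19409204 to 23472012 expected counts in a library (1.21-fold). Fragment length was not, as RSEM length exceeded effective length by 271.77 to 277.32 bases in parental A, parental B and B04 A but 220.84 to 246.18 bases in B04 B, B64 A and B64 B. Split into a long and a short class at the widest gap, fragment length and line could thus be told apart only through the B04 libraries. The short class was itself uneven, with B64 A at 220.84, B04 B at 225.18 and B64 B at 246.18 bases. Nothing says that replicates were separate cultures, so the p-values measure the spread between these libraries, which may be technical. Of 9 leukocyte markers only Cd68 reached 1 TPM, at 39.62 and 36.06 TPM in B64 and 10.08 to 11.99 TPM elsewhere, so the sum of the list was higher in B64 (40.29 and 36.67 TPM against 10.46 to 12.16). Cd3e, Cd8a and Ms4a1 were at 0 in all libraries and Ptprc did not exceed 0.01 TPM. The 4 endothelial markers summed to at most 0.1 TPM and the 4 erythroid markers to at most 2.3 TPM. Of 7 colon epithelial markers only Krt18 and Krt20 reached 1 TPM, and their list summed to 45.7 and 48.04 TPM in B64 against 22.38 to 25.42 TPM in the other libraries. Epcam (at most 0.06 TPM), Cdh1 (at most 0.04 TPM) and Vil1 (0) were near or at 0. Cdx2 was at 0.87 and 0.56 TPM in the parental line and at 0 in both clones. Of the 3 mesenchymal markers, Vim was at 2041.67 to 3798.74 TPM and Fn1 at 175.32 to 299.71 TPM. The third, Col1a1, was at 1.48 and 2.0 TPM in B64 and 9.29 to 10.54 TPM in the other libraries. The part of these markers in the differences between lines was not tested. In bulk RNA, fewer cells with a transcript and less of it per cell cannot be told apart.

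B2m and H2-D1 were the most abundant of the 10 transcripts in every line. On the TPM scale, which corrects for length, mean levels in the parental line were 695.34 ± 18.31 TPM for B2m (SD, n = 2), 342.84 ± 9.75 TPM for H2-D1 and 90.98 ± 6.18 TPM for H2-K1. H2-M3 (31.56 ± 0.6 TPM) and H2-Q4 (26.72 ± 0.77 TPM) followed, then H2-T22 (10.14 ± 0.72 TPM), H2-T23 (7.22 ± 1.07 TPM) and H2-T24 (0.96 ± 0.33 TPM). H2-Q6 (0.3 ± 0.07 TPM) and H2-Q7 (0.05 TPM in both libraries) were the lowest. The order was the same in B04, where H2-M3 (29.22 ± 1.56 TPM) and H2-Q4 (27.14 ± 0.33 TPM) were closest, with a lowest H2-M3 library of 28.12 TPM and a highest H2-Q4 library of 27.37 TPM. In B64 neighbours changed places in 2 pairs, as H2-Q4 (37.47 ± 0.4 TPM) stood above H2-M3 (34.63 ± 0.13 TPM) and H2-T23 (17.82 ± 0.59 TPM) above H2-T22 (15.66 ± 1.03 TPM).

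**Figure D1:**
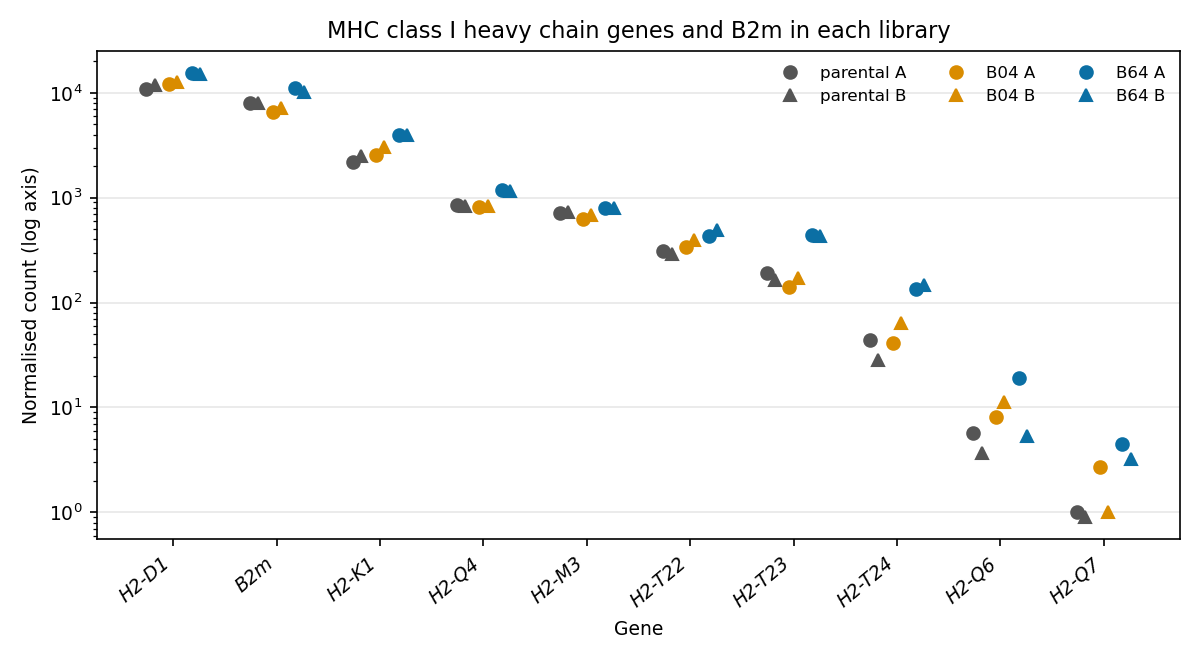
Normalised counts (expected counts over DESeq2 size factors, log axis) of the 10 genes, with grey for parental, orange for B04 and blue for B64, circles for replicate A and triangles for replicate B. The B64 points lie above all others for H2-D1, B2m, H2-K1, H2-Q4, H2-M3, H2-T22, H2-T23 and H2-T24, whereas B2m is lowest in B04 and H2-Q6 and H2-Q7 rest on few counts.

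How firmly each level is known depends on how many reads the H2 genes share. RSEM splits a read that fits several genes between them, so a gene with whole expected counts shared few reads. H2-T23, H2-T24, H2-M3 and B2m had whole expected counts in all 6 libraries (tolerance 0.005), as did 74.3% of 12005 genes with a mean of at least 10. H2-K1, H2-D1, H2-T22 and H2-Q4 had whole expected counts in 0 of 6 libraries, so their values depend on how RSEM divided shared reads. Of the 150-base windows of its transcripts, H2-T22 shared 22.3% with another gene (mostly A930015D03Rik, an antisense gene annotated across it, and H2-T10), H2-Q4 9.9% (Gm11131, also antisense to it), H2-Q6 6.0% and H2-Q7 5.9% (with each other and with other Q genes), H2-D1 1.4% (H2-Q1) and H2-T23 0.3%. H2-K1, H2-T24, H2-M3 and B2m shared 0% at that length. Windows of 50 bases were shared more often, in 53.5% for H2-T22, 35.4% for H2-Q4, 35.0% for H2-Q6, 26.5% for H2-Q7, 14.5% for H2-T23, 12.8% for H2-D1 and 308 of 3032 windows for H2-K1, against 3.2% for H2-T24, 0.6% for H2-M3 and 0% for B2m. A930015D03Rik also overlaps H2-T23 and H2-T24, and it held 51.25 to 91.61 expected counts a library. Patl2, on the strand opposite B2m, held 0 to 5 expected counts. The counting is not stated to use strand, so reads of antisense partners cannot be told apart.

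The strain adds a further limit. The mm10 reference is of strain C57BL/6, which carries other H2 alleles than BALB/c and lacks the BALB/c gene H2-L, a close relative of H2-D1. Reads of BALB/c alleles that differ from the reference, or that come from H2-L, could be lost or counted under another H2 gene, and how many were was not tested. The lines share a strain, so this touches levels and the order of genes in every library. Differences between lines could be touched as well. If H2-L or another BALB/c gene differed between lines, its reads could add to the fold of the H2 gene they were counted under. This was not tested.

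By flow cytometry, the study found surface MHC class I protein (H2-Kd) to be alike at baseline in the parental line, B04 and B64. It also reported H2-T23 as higher in B64, in RNA and in chromatin accessibility. The values below are of mRNA, and no protein was measured here. To ask whether resistant clone B64 differed from the parental line in class I transcription, each gene was tested across all 6 libraries in DESeq2. Of the 9 genes tested, 7 were higher in B64 (H2-K1, H2-D1, H2-T22, H2-T23, H2-T24, H2-Q4 and B2m) and 0 were lower. By the same rule, 8.87% of 13218 genes were higher and 7.45% were lower. The edgeR quasi-likelihood test also called 7, all higher, against a background of 13.1%. Both B64 libraries lay above both parental ones in 8 of the 8 genes with a mean of at least 10 normalised counts, as did 30.5% of all genes tested. The median log2 fold change of the 9 tested genes, H2-Q6 with its few counts included, was 0.6, against -0.002 over all genes tested. Among the 8 genes with a fold, it was largest for the low non-classical chains H2-T24 and H2-T23 and smallest for H2-M3.

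The classical heavy chain H2-K1 had 2192.2 and 2504.6 normalised counts in the parental libraries (A and B), 2579.3 and 3047.5 in B04, and 3965.4 and 3943.6 in B64. Both B64 libraries stood above all others, and the B04 libraries lay between them and the parental ones without overlap. In B64 the level was 1.68-fold that of the parental line, or 0.75 ± 0.09 on the log2 scale (SE; DESeq2 adjusted p = 3.41e-15).

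H2-D1, the other classical chain in the table, had 10799.7 and 11807.6 normalised counts in the parental line, 12091.0 and 12645.1 in B04, and 15451.7 and 15129.0 in B64. The lines stood in the same order as for H2-K1, and B64 was clear of the rest. Its difference in B64 was 0.44 ± 0.06 (log2 scale, SE, DESeq2 adjusted p = 4.53e-12), a 1.35-fold difference.

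H2-T23 encodes Qa-1, the class Ib chain that is recognised by the CD94/NKG2A receptor of NK cells and T cells. It had 191.7 and 163.7 normalised counts in the parental line, 139.5 and 171.0 in B04, and 445.1 and 426.9 in B64. The parental and B04 libraries overlapped, and both B64 libraries were more than double any of them. The log2 fold change in B64 was 1.29 (SE 0.2, DESeq2 adjusted p = 1.69e-09), or 2.45-fold.

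H2-T24, a class Ib gene of the T region whose function is less known, had 43.9 and 28.1 normalised counts in the parental line, 41.0 and 64.1 in B04, and 135.9 and 146.1 in B64. It had the largest fold of the 8 genes for which one was computed. The log2 fold change in B64 was 1.97 (SE 0.37, DESeq2 adjusted p = 3.77e-06), or 3.92-fold, and its 95% interval ran from 1.24 to 2.7.

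H2-T22, a chain known as a ligand of gamma-delta T cells, had 311.9 and 292.7 normalised counts in the parental line, 336.5 and 397.0 in B04, and 430.4 and 486.8 in B64. No line overlapped another, but the steps were small. The log2 fold change in B64 was 0.6 (SE 0.16, DESeq2 adjusted p = 0.00304). This call was lost without parental A (adjusted p = 0.054), without parental B (0.0952) or without B64 B (0.195), and it is the gene with the largest share of sequence in common with other genes.

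H2-Q4, a class Ib chain of the Q region, had 848.1 and 840.8 normalised counts in the parental line, 821.8 and 829.6 in B04, and 1183.6 and 1161.7 in B64. Parental and B04 libraries lay close together and B64 stood apart. The log2 fold change in B64 was 0.47 (SE 0.1, DESeq2 adjusted p = 7.14e-05).

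H2-M3, which presents N-formylated peptides as mitochondria and bacteria make them, was the gene with enough counts that did not pass the test. It had 719.3 and 731.4 normalised counts in the parental line, 622.0 and 678.9 in B04, and 797.4 and 793.8 in B64. The B64 libraries were again the highest, but the log2 fold change against the parental line was 0.13 (SE 0.12, DESeq2 adjusted p = 0.537), with a 95% interval from -0.10 to 0.36.

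H2-Q6 and H2-Q7, genes of the Qa-2 family, were too low for a fold. H2-Q6 had expected counts of 6.0 and 3.84 in the parental line, 9.12 and 10.98 in B04, and 16.84 and 5.49 in B64, and it was tested but did not pass (DESeq2 adjusted p = 0.459 in B64). H2-Q7 had 1.0 and 1.17, then 3.06 and 1.02, then 4.42 and 2.51, and DESeq2 left it out of the adjustment as too low. RSEM's estimate of transcript length moved from 981 to 2085 bases between libraries for H2-Q6 and from 1233 to 4209 bases for H2-Q7, against 1537 to 1584 bases for H2-K1, so the estimated mix of transcripts was unstable for both. No difference was detectable at this depth.

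The light chain B2m had 7997.0 and 8053.5 normalised counts in the parental line, 6531.2 and 7091.5 in B04, and 11072.9 and 10248.6 in B64. B64 was highest, and B04 lay below the parental line, unlike for H2-K1 and H2-D1. The log2 fold change in B64 was 0.41 (SE 0.06, DESeq2 adjusted p = 2.51e-09), a 1.33-fold difference.

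**Figure D2:**
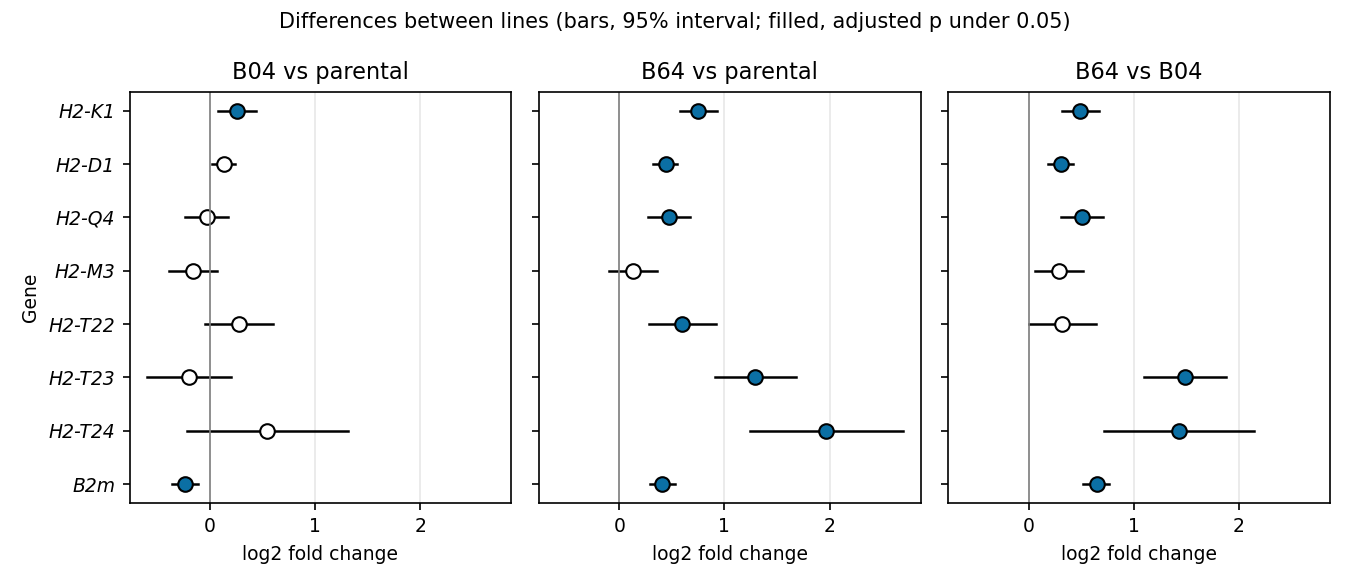
Log2 fold changes of the 8 genes with a mean of at least 10 normalised counts in each comparison, with bars for 95% intervals and filled points for an adjusted p under 0.05 (DESeq2, 2 libraries a line). In B64 against parental 7 of the 8 points are filled and to the right of 0, and in B04 against parental H2-K1 is filled to the right and B2m to the left.

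These calls depended in part on how fragment length was handled. When the fragment-length class entered the fit as a block, the comparison of B64 with the parental line called 340 genes in place of 2157. The class I genes called fell from 7 to 2, H2-K1 (log2 fold change 0.51, adjusted p = 0.033) and H2-D1 (0.37, adjusted p = 0.0299). The other values in that fit were 1.0 for H2-T23 (adjusted p = 0.264), 1.33 for H2-T24 (0.688), 0.46 for H2-Q4 (0.434), 0.36 for H2-T22 (adjusted p of 1.0) and 0.29 for B2m (0.224), and all were above 0.

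The comparison of clone B04 with the parental line, which shares the parental libraries with that of B64, gave another picture. Of the 9 genes tested, 1 was higher in B04 (H2-K1) and 1 lower (B2m). The background was 11.2% of 13218 genes higher and 12.9% lower, so this count was near the share of all genes called. H2-K1 was 1.2-fold the parental level, or 0.26 ± 0.09 (log2 scale, SE) with a DESeq2 adjusted p = 0.0189. B2m had one of -0.24 (SE 0.06, DESeq2 adjusted p = 0.0013), with a mean of 6811.4 normalised counts against 8025.2. In the edgeR test the adjusted p was 0.0287 for H2-K1 and 0.0117 for B2m.

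Neither B04 call was firm. Here the fragment-length block and leaving out B04 B both set B04 A against the parental line, so they are not separate evidence. H2-K1 was higher in both B04 libraries than in both parental ones, but by 0.38 (log2) in B04 B and 0.14 in B04 A, the library that shared the fragment class of the parental line. Its call was kept in 9 of 17 alternatives. It was lost with fragment-length class as a block (log2 fold change 0.14, adjusted p = 0.538) and with effective lengths as an offset (0.26, adjusted p = 0.111). It was lost in the limma fits as well (0.33 and adjusted p = 0.0788 on log2(TPM + 1)). The same held without B04 B (0.13), without parental A (0.17) and, narrowly, without B64 B (0.26). B2m was lower than the parental mean by 0.30 in B04 A and by 0.18 in B04 B, and its call was kept under the fragment-length block (-0.30, adjusted p = 0.00308) but lost without B04 A (-0.18, adjusted p = 0.106) and in limma on log2(TPM + 1), narrowly (-0.22, adjusted p = 0.0506).

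The other 6 genes with a fold did not pass the test in B04. Their log2 fold changes were 0.13 for H2-D1 (SE 0.06, DESeq2 adjusted p = 0.0918), 0.28 for H2-T22 (SE 0.17), 0.54 for H2-T24 (SE 0.39), -0.03 for H2-Q4 (SE 0.1), -0.16 for H2-M3 (SE 0.12) and -0.2 for H2-T23 (SE 0.2). The 95% intervals were 0.02 to 0.24 for H2-D1, -0.05 to 0.6 for H2-T22, -0.22 to 1.31 for H2-T24, -0.24 to 0.17 for H2-Q4, -0.39 to 0.07 for H2-M3 and -0.6 to 0.2 for H2-T23. The log2 fold change estimated for B64 lay above the B04 interval for H2-D1, H2-T24, H2-Q4, H2-M3 and H2-T23, and at its upper bound for H2-T22. This is no test between the clones, as the B64 estimates have intervals of their own (-0.1 to 0.36 for H2-M3). Both comparisons also share the parental libraries. H2-D1 passed without parental B (log2 fold change 0.19, adjusted p = 0.0249).

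Set against each other, the clones differed in 6 of the 9 genes tested, 6 higher in B64 and 0 lower, where 13.1% of 12855 genes were higher and 11.1% lower. B2m showed it with the smallest adjusted p, at 0.65 (SE 0.06, DESeq2 adjusted p = 4.04e-23), a 1.57-fold difference. H2-T23 had the largest fold, 1.49 (SE 0.2, DESeq2 adjusted p = 1.58e-12), followed by H2-T24 at 1.43 (SE 0.36, adjusted p = 0.0007). H2-Q4 (0.51, SE 0.1), H2-K1 (0.49, SE 0.09) and H2-D1 (0.31, SE 0.06) also passed, with adjusted p = 1.03e-05, 5.22e-07 and 2.11e-06. H2-M3 (0.29, SE 0.12, adjusted p = 0.0535) and H2-T22 (0.32, SE 0.16, adjusted p = 0.146) did not pass in DESeq2 and did in edgeR (adjusted p = 0.0117 and 0.0393), which called 8 genes higher (background 17.1%). Both B64 libraries lay above both B04 libraries in 8 of 8 genes with a fold, as did 33.7% of all genes tested.

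This comparison was less bound to fragment length than that with the parental line, since B04 B had short fragments like both B64 libraries. Set against B04 B alone, the B64 mean was higher by 1.35 (log2) for H2-T23, 1.14 for H2-T24, 0.59 for B2m, 0.5 for H2-Q4, 0.38 for H2-K1 and 0.27 for H2-D1. With the fragment-length block, 5 of the 6 passed again, and H2-T24 did not (1.14, adjusted p = 0.131). Leaving out B04 A sets B64 against B04 B as the block does, so its 1.14 for H2-T24 is not separate evidence. Without B64 B, H2-T24 was at 1.37. Over 17 alternatives its log2 fold change ran from 0.97 to 1.78, and its call was kept in 13 of them.

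Because reads are shared between H2 genes, the 9 heavy chains were also summed in each library, which does not depend on how RSEM divided reads among them. The sums were 15113.4 and 16373.5 normalised counts in the parental line, 16642.2 and 17845.4 in B04, and 22433.4 and 22096.3 in B64. B64 was 1.414-fold the parental mean and B04 1.095-fold, and the B04 libraries (1.057 and 1.134) lay just above the higher parental library (1.04). H2-D1 took 68.5% to 72.7% of the sum and H2-K1 14.5% to 17.8%, so the sum mainly follows those genes. The 7 other chains alone summed to 2121.6 and 2061.3 in the parental line, 1971.9 and 2152.8 in B04, and 3016.3 and 3023.7 in B64. Adding all other class I rows of the tables moved the B64 ratio only to 1.417.

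The light chain did not keep step with the heavy chains in B04. The ratio of B2m to the heavy chain sum, on the count scale, was 0.529 and 0.492 in the parental line, 0.392 and 0.397 in B04, and 0.494 and 0.464 in B64. B04 stood below all other libraries, and the parental and B64 libraries overlapped. The B04 mean of this ratio was 0.774 of the parental mean (exact two-sided permutation test, p = 0.333, the smallest that 2 against 2 libraries allow). On the TPM scale, where length is corrected, the ratio was 1.411 and 1.314, then 1.054 and 0.995, then 1.223 and 1.187, so on that scale B64 lay between the other lines without overlap.

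**Figure D3:**
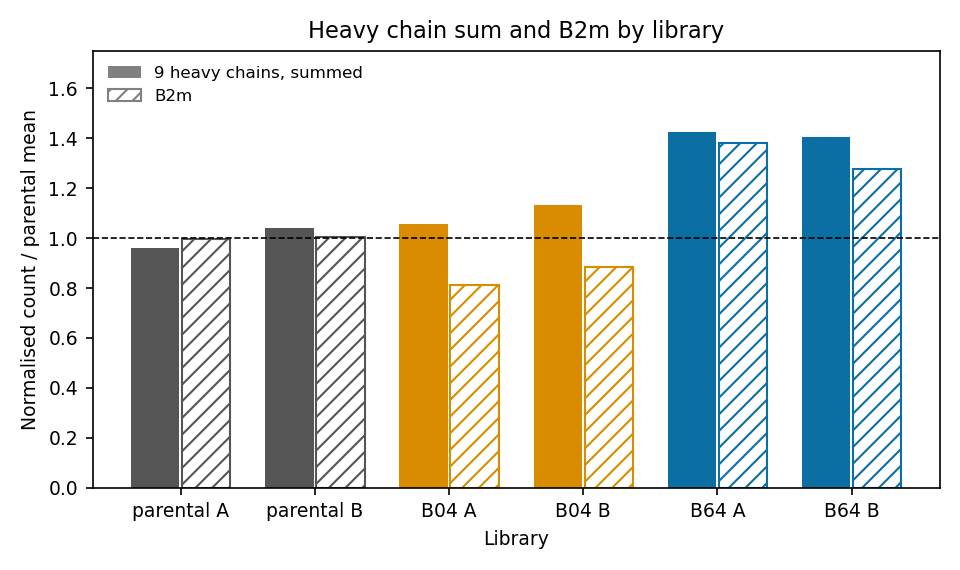
The summed normalised counts of the 9 heavy chains (filled bars) and of B2m (hatched bars) in each library, over the mean of the parental libraries (dashed line at 1). In B64 both are above 1 (heavy chains 1.425 and 1.404, B2m 1.38 and 1.277), and in B04 the heavy chains are at 1.057 and 1.134 while B2m is at 0.814 and 0.884.

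Most other class I genes had almost no counts. Of 25 other class I genes of the H2 complex, 20 were in the tables, 14 of these had at most 3 counts in every library and 4 were tested. H2-Q1 was higher in both clones, with 16.2 and 17.8 normalised counts in the parental line, 31.9 and 61.1 in B04 and 74.8 and 58.9 in B64 (log2 fold change 1.45, SE 0.51, adjusted p = 0.0219 in B04 and 1.97, SE 0.5, adjusted p = 0.00118 in B64). H2-Q1 shares sequence with H2-D1, so this value depends on how reads were divided. H2-T10, the close relative of H2-T22, had 69.6 to 126.9 normalised counts and did not pass in either clone. Of 7 class I-like genes outside the complex, 4 were tested. In B04 the test called 2 higher and 1 lower, and in B64 it called 2 higher and 0 lower. Procr, the endothelial protein C receptor, had 1350.8 and 1508.6 normalised counts in the parental line, 851.9 and 857.1 in B04, and 1901.7 and 1619.1 in B64. It was lower in B04 (-0.74, SE 0.11, adjusted p = 9.06e-11) and higher in B64 (0.3, SE 0.1, adjusted p = 0.0271). Fcgrt, the neonatal Fc receptor heavy chain, which also pairs with B2m, was higher in B04 (0.42, SE 0.14, adjusted p = 0.0114) and in B64 (0.37, SE 0.14, adjusted p = 0.0483). Hfe, an iron regulator that pairs with B2m as well, was higher in B04 (1.06, SE 0.32, adjusted p = 0.00536) and lower in B64 than in B04 (-1.22, SE 0.32, adjusted p = 0.00129).

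Of 13 known regulators of class I transcription reported here, 1 was higher (Nlrc5) and 0 lower in B64 (median log2 fold change 0.05). That is 7.7% of the list, near the 8.87% of all genes called higher. Nlrc5, the class I transactivator, had 298.6 and 290.9 normalised counts in the parental line, 235.3 and 246.3 in B04, and 489.3 and 419.5 in B64 (0.62 in B64, SE 0.17, adjusted p = 0.00248). It was also higher in B64 than in B04 (0.92, SE 0.17, adjusted p = 1.33e-06). In B04, 3 of the 13 were higher (Irf1, Nfyb and Atf1) and 0 lower, or 23.1% higher against 11.2% of all genes. Irf1, an interferon-induced activator, had 337.7 and 376.0 normalised counts in the parental line, 558.2 and 630.1 in B04 and 410.0 and 385.8 in B64 (0.73 in B04, SE 0.15, adjusted p = 1.17e-05).

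Most genes that supply and load peptide were higher in each clone than in the parental line, whose libraries both comparisons share. Of 13, 9 were higher and 0 lower in B64 (median 0.33), against a background of 8.87% higher and 7.45% lower over all genes. In B04, 8 were higher and 3 lower (median 0.36), against 11.2% higher and 12.9% lower. Tapbp, which bridges heavy chains to the peptide transporter, had log2 fold changes of 0.84 in B64 (SE 0.09, adjusted p = 1.12e-19) and 0.64 in B04 (SE 0.09, adjusted p = 1.13e-11). The immunoproteasome subunit Psmb8 was at 0.9 in B64 (SE 0.16, adjusted p = 6.87e-07) and 1.39 in B04 (SE 0.16, adjusted p = 1.22e-16). Psmb9, the immunoproteasome subunit encoded beside it, was at 1.3 in B64 (SE 0.22, adjusted p = 2.6e-07) and 1.42 in B04 (SE 0.22, adjusted p = 5.79e-09). Of the subunits of the peptide transporter, Tap1 was at 0.6 in B64 (SE 0.1, adjusted p = 6.67e-08) and 0.36 in B04 (SE 0.1, adjusted p = 0.00246). Tap2 was at 0.57 in B04 (SE 0.08, adjusted p = 1.42e-12). It had 2355.9 and 2405.5 normalised counts in B64, above the 1906.0 and 2062.2 of the parental line. Psme2, a proteasome activator subunit, was at 0.37 in B64 (SE 0.07, adjusted p = 1.33e-05) and 0.26 in B04 (SE 0.07, adjusted p = 0.0029). The 3 genes lower in B04 were the ER chaperones Calr (-0.4, SE 0.05, adjusted p = 3.43e-12), Pdia3 (-0.23, SE 0.05, adjusted p = 0.00014) and Canx (-0.16, SE 0.06, adjusted p = 0.0438), which fold class I heavy chains among many other proteins. Pdia3 and Canx were named after their values were seen, to complete the count. In B04, B2m was lower together with these chaperones.

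**Figure D4:**
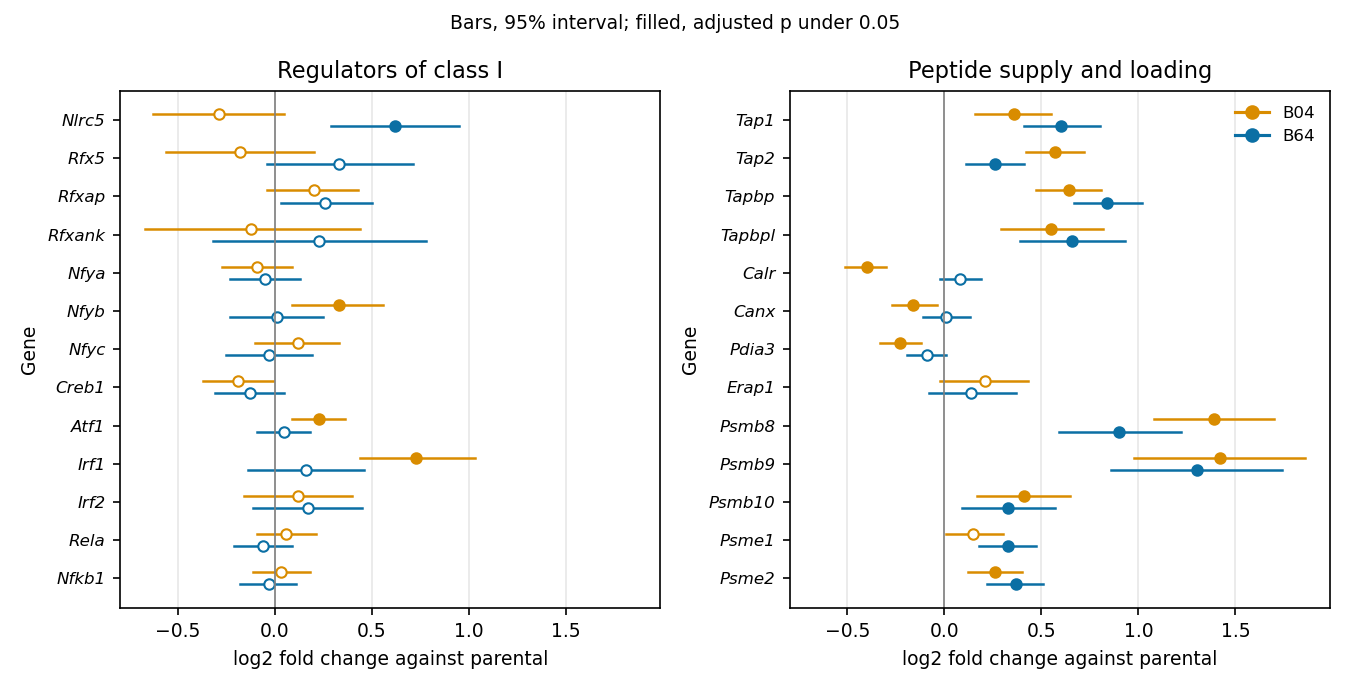
Log2 fold changes against the parental line of 13 regulators of class I (left) and 13 genes of peptide supply and loading (right), with orange for B04, blue for B64, bars for 95% intervals and filled points for an adjusted p under 0.05 (DESeq2). Nlrc5 is to the right of 0 in B64 (filled) and to the left in B04 (not filled), and Psmb8 and Psmb9 are to the right in both.

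MHC class II genes and the genomic neighbours were read in the same fit. Of 11 class II genes, 8 had at most 3 counts in every library and 2 were tested. H2-Aa was at 0 and Ciita, the class II transactivator, at no more than 0.02 TPM. Cd74, the invariant chain, was higher in B04 (2.0, SE 0.31, adjusted p = 6.24e-09) and was 0.65 in B64 (SE 0.33, adjusted p = 0.19). Of 139 other protein-coding genes between H2-K1 and H2-M3 on chromosome 17, 80 were tested against the parental line. In B64 12 were higher and 7 lower (15.0% and 8.8% of the 80, against 8.87% and 7.45% of all genes). The median log2 fold change was 0.03, against 0.68 for the 8 heavy chains tested, H2-Q6 with its few counts included. In B04 20 were higher and 9 lower (25.0% and 11.2% of the 80, against 11.2% and 12.9% of all genes). The median there was 0.13. The share of neighbours called higher was above the background in both clones. However, these neighbours include Tap1, Tap2, Psmb8 and Psmb9, which are also counted under peptide supply. Tap1, Psmb8 and Psmb9 were called higher in both clones, and the share without such genes was not computed.

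The genes with the most similar profiles were found by the root mean square difference of centred log2(normalised count + 1) values over the 6 libraries, among 9871 genes with a mean of at least 100. For H2-K1 they were Cradd (0.034), Mrps35 (0.051), Nat9 (0.054), Odc1 (0.059) and Mthfsl (0.065), with the difference in parentheses on the log2 scale. For B2m they were Rhbdf2 (0.038), Plekhn1 (0.042), Amdhd2 (0.043), Kif3c (0.046) and Atp6v1g1 (0.047). With 6 libraries in 3 pairs, many genes can lie this close, and none of these 10 is on the lists of class I regulators or peptide supply used here.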

How the data were processed

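RNA-seq was performed on 6 libraries of CT26 cells, and groups and replicate letters were taken from the sample titles. Per the submitters' processing notes and the study's methods, the authors aligned reads to mm10 with STAR and quantified genes with RSEM. The annotation release is not given in the sources used here. Each deposited table holds RSEM's expected count of every gene, an estimate that need not be whole, and its TPM, a level that the authors obtained from RSEM after scaling for effective length and the library's total. FPKM values were not used. Of 53801 gene identifiers, 53620 matched a symbol in GENCODE M21.

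Expected counts were rounded, and one DESeq2 fit over all 6 libraries (version 1.42.0 in R 4.3.3, the study's tool) had the line as single term. Calls needed a Wald p under 0.05 after Benjamini-Hochberg adjustment over all genes tested, with independent filtering and no minimum fold. Normalised counts are expected counts over DESeq2 size factors. Genes with a mean under 10 got no fold of their own, but those that were tested entered the medians. The edgeR quasi-likelihood test (version 4.0.16) and limma (version 3.58.1) on log2(TPM + 1) and log2(TPM + 0.1) were among 17 alternatives, which also covered normalization, filters, libraries in the fit, the replicate letter, fragment-length class, effective length and leaving out each library. The tests were checked on simulated counts. Fragment length was read as RSEM length minus effective length, and the classes were split at the widest gap.

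Windows of 150 and 50 bases of the transcripts were matched exactly against those GENCODE M21 transcripts that RSEM had quantified. Promoter windows were from RefSeq (GRCm38.p6). All 10 genes were described in every comparison. From each list, counts and at most 5 genes of smallest adjusted p, plus genes at or near 0, were named. Pdia3 and Canx were added after their values were seen. The members, lists and fragment-length block were chosen with earlier results of these data known, and the motif letters after the windows were seen. In the lists, 1 regulator and 1 leukocyte marker are not reported here.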

Additional observations from a re-analysis of the deposited data

Results flagged for a closer look

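The clones' effects against the parental line differed from each other for 6 of the genes when B64 was tested against B04 directly (DESeq2 Wald test, adjusted over all genes). The differences, B64 minus B04 on the log2 scale, were 1.49 for H2-T23, 1.43 for H2-T24, 0.65 for B2m, 0.51 for H2-Q4, 0.49 for H2-K1 and 0.31 for H2-D1, and in each both B64 libraries were higher than both B04 libraries. By the same rules, 13.1% of 12855 genes were called higher in B64, and both B64 libraries lay above both B04 ones in 33.7%. For B2m the clones lay on opposite sides of the parental line. Groups of 2 libraries are too small for a test of single libraries that stand apart. B04 A had long fragments and the other 3 libraries of these clones short ones. Cd68 (39.62 and 36.06 TPM in B64, 11.99 and 10.08 TPM in B04) differed between the same libraries, and its part in these differences was not tested, while Ptprc did not exceed 0.01 TPM.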

How the results depend on the processing

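Over 17 alternatives per comparison, the class I genes called numbered 2 to 7 for B64 against the parental line (7 as reported), 3 to 8 for B64 against B04 (6 as reported) and 0 to 3 for B04 against the parental line (2 as reported). H2-K1 and H2-D1 in B64 against the parental line, and H2-T23, H2-Q4 and B2m in B64 against B04, kept their calls in all 17. For B04 against the parental line, 1 gene was called with the fragment-length block and 1 with effective lengths as an offset, and 0 with limma on log2(TPM + 1), log2(TPM + 0.1) or unfiltered log2(TPM + 1), where 4 had an unadjusted p under 0.05 and edgeR called 2. H2-Q4 in B04 was -0.03 as reported and 0.02 in those limma fits. B64 against the parental line had 2 class I genes called with the fragment-length block, and B64 against B04 had 3 with unfiltered limma. Leaving out single libraries gave 1 to 3, 6 to 7 and 5 to 6 genes called for B04 and B64 against the parental line and B64 against B04. When a library was left out, the lone library of its line was assumed to vary like the others.

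Counts over all genes moved more. In the order fragment-length block, limma with + 1, + 0.1 and unfiltered, they were 1596, 1966, 1968 and 1323 for B04 (3181 as reported), 340, 1258, 1244 and 715 for B64 (2157) and 1625, 2054, 2034 and 1382 for B64 against B04 (3118). Leaving out single libraries gave 1755 to 2577, 988 to 1772 and 1696 to 2758. The share of calls that were higher moved from 46.4% to 67.7% for B04 and from 54.3% to 68.8% for B64 with limma on log2(TPM + 1), and from 54.2% to 47.4% for B64 against B04. The heavy chain sum in B64 over the parental line was 1.414 on counts and 1.449 on TPM (1.451 with all class I rows). The cause of these moves was not tested. The replicate letter is only a shared letter: same-lettered libraries deviated together with correlations across genes of 0.11, 0.01 and -0.05, and as a replicate block it left 2, 7 and 6 class I genes called and 2655, 1716 and 2638 genes in all. Depth limits H2-Q6 and H2-Q7, with at most 16.84 and 4.42 expected counts.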
